A study of Rattus norvegicus with 6 samples.

Results

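Mitochondrial ribosomal proteins were examined through the 74 genes whose symbols begin with Mrpl or Mrps and a number, of 18286 genes measured, 44 named for the large and 30 for the small subunit. They were measured in a rat line derived from a basophilic leukemia, RBL-2H3, that serves as a model of mast cells. There were 3 libraries of cells given dihydrocoumarin (DHC), a lactone named in the study's title as an extract of Melilotus officinalis, and 3 control libraries with no treatment on their label. One protocol is attached to both groups, which lists anti-DNP IgE at 50 ng/ml over 12 h followed by DNP-HSA antigen, 100 ng/ml, over 4 h. Whether control cells also got antigen is not spelled out, and neither dose nor duration of DHC is given, so the contrast is DHC against control as labelled. All libraries are from 1 cell line, and separate cultures are not stated, so each p-value reflects only how these libraries spread, and that spread may be technical.

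The mitochondrial ribosome is the machine inside mitochondria that translates the few messenger RNAs of the mitochondrial genome, all of which code for parts of the respiratory chain and ATP synthase. Its RNAs come from mitochondrial DNA, but its proteins are encoded in the nucleus, made in the cytosol and imported. Some of them descend from proteins of the bacterial ribosome, and others have no bacterial counterpart and cover surfaces that bacterial ribosomes build from RNA. The small subunit binds the messenger RNA, and the large subunit joins the amino acids and holds the exit tunnel. Whole cells and unsorted RNA were measured, so fewer cells of a kind and less RNA per cell cannot be told apart.

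Libraries held between 29084976 and 34170922 reads assigned to genes, and values are RPKM, reads scaled to exon length in kilobases and to the library's total. Markers of mast cells and basophils were present, with all 7 at 1 RPKM or more and a summed level of 690.1 to 716 RPKM in DHC and 974 to 999 RPKM in control libraries. The lower sum came from Gata2 (69.9 and 345 RPKM in DHC and control libraries), Kit (64.4 and 115 RPKM) and less from Hdc and Fcer1g, while Ms4a2 (369 and 321 RPKM), Cpa3 and Fcer1a had higher means with DHC. Of markers of other cell types in the table, 1 of 4 for T cells (Cd3e, which set the summed T cell level of 40.6 to 43.8 RPKM in DHC and 31.8 to 37.4 RPKM in control libraries), 0 of 2 for B cells, 0 of 3 for macrophages, 1 of 2 for fibroblasts (Col3a1) and 1 of 2 for epithelium (Krt8) reached 1 RPKM. Summed fibroblast markers stood at 20.6 to 23.5 RPKM in DHC and 22.6 to 24.5 RPKM in control libraries. The part of these differences in the results was not tested.

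With DHC, 14 of 72 tested members rose and 5 fell, and 53 did not pass the test (limma, adjusted p below 0.05 over all genes). The shares were 19.4% higher and 6.94% lower, against 18.4% and 16.1% of all 10667 genes tested. The share that rose was therefore close to the background. Changes were small, and of the members past the threshold only Mrps21, Mrps18a, Mrpl42 and Mrpl10 had a log2 fold change beyond 0.5 in size, on the scale log2(RPKM + 1). The median log2 fold change was 0.08 for members and 0.05 for all genes tested. The 3 DHC and 3 control values did not overlap for 27 of 72 members, 21 higher (29.2%) and 6 lower (8.33%), beside 28.1% and 21.6% of all genes tested (49.7% in either direction). When libraries were scaled by trimmed means, which moves the median of all genes to −0.0045, the split became 10 higher and 7 lower among members, beside 1285 higher and 2114 lower of all 10667 genes.

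In the large subunit 7 of 43 tested genes rose and 2 fell, with a median log2 fold change of 0.05. In the small subunit 7 of 29 rose and 3 fell, with a median of 0.14. The shares were 16.3% higher and 4.65% lower in the large and 24.1% and 10.3% in the small subunit. Those of all genes tested were 18.4% and 16.1%. Under scaling by trimmed means there were 5 higher and 4 lower in the large subunit (median −0.01) and 5 higher and 3 lower in the small one (median 0.08), and the difference between subunits was not tested. Summed over its genes, the small subunit stood at 1019.8 ± 48.6 RPKM in DHC and 918 ± 40.6 RPKM in control libraries (SD, n = 3), and the large subunit at 1073 ± 14.4 and 1017 ± 16.6 RPKM. Without its 3 most abundant genes the small subunit's sum was 563 ± 21.3 RPKM in DHC and 510.5 ± 26.1 RPKM in control libraries. The median level over the small subunit's genes stood the other way, at 18.9 ± 1.36 RPKM in DHC and 20.7 ± 2.32 RPKM in control libraries, with overlapping ranges. The DHC sums for the small subunit lay between 965 and 1057 RPKM and the control sums between 871 and 946 RPKM. The ratio of small to large subunit sums was 0.950 ± 0.033 in DHC and 0.902 ± 0.0282 in control libraries, with ranges of 0.912 to 0.973 and 0.870 to 0.922 that overlapped. All members together took 0.230% ± 0.00731 of the reads in DHC and 0.215% ± 0.00706 in control libraries. These sums and shares rest on library totals and were not rescaled. The trimmed-mean factors, by which values are divided, were 1.02 to 1.03 in DHC and 0.967 to 0.985 in control libraries.

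**Figure D1:**
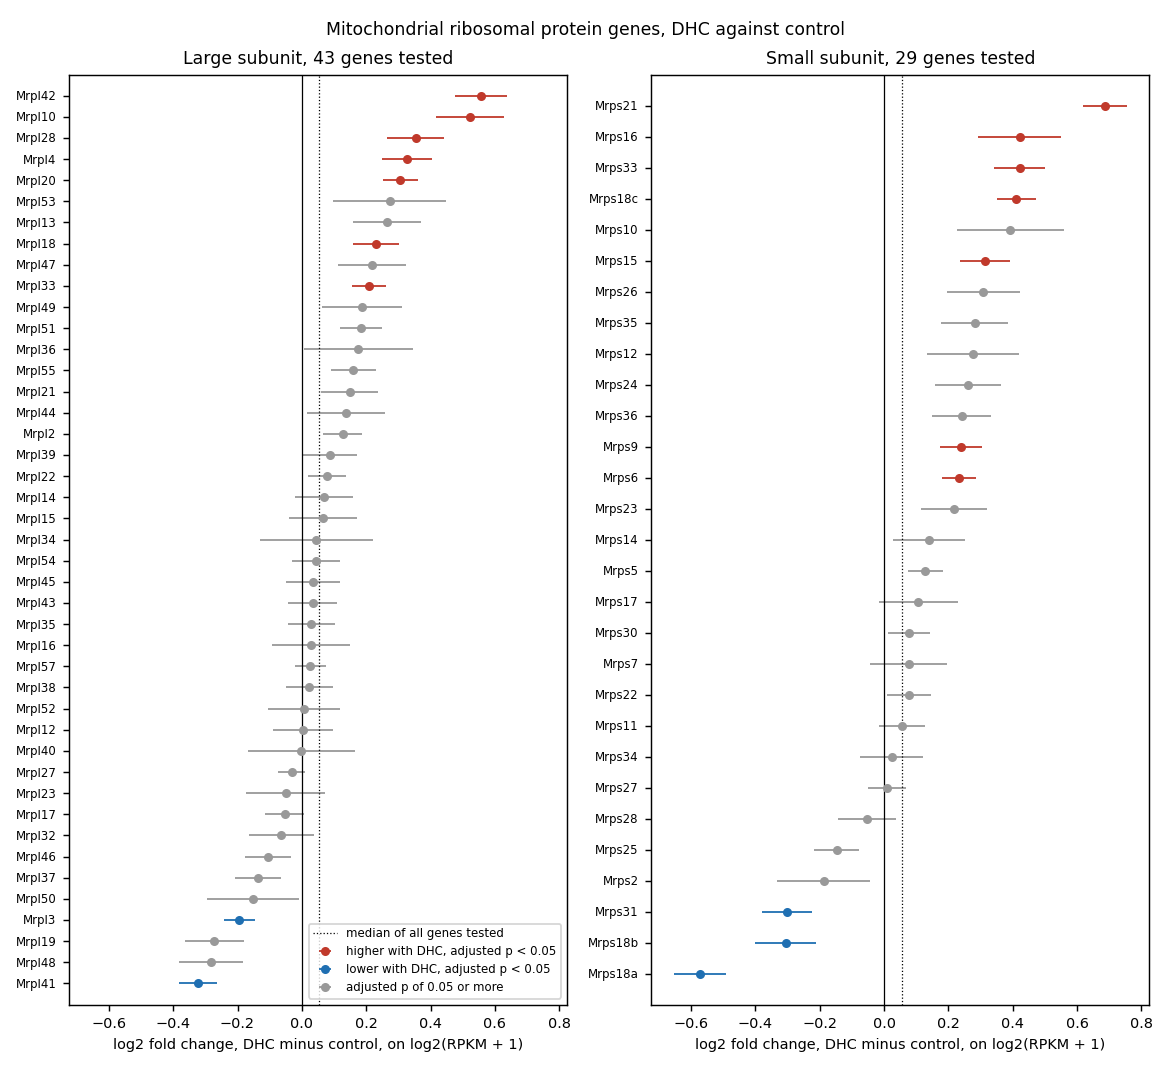
Log2 fold change of each tested member, DHC minus control on the log2(RPKM + 1) scale, with bars of 1 standard error, for 43 large (left) and 29 small subunit genes (right). Most members lie within 0.3 of 0, while Mrps21 (0.69) and Mrps18a (−0.57) lie at the ends of the small subunit and Mrpl42 (0.56) and Mrpl41 (−0.32) at those of the large one.

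Of the 19 members past the threshold, 8 passed it under each of the 18 alternatives run at that threshold, with adjusted p no higher than 0.0273. These were Mrps21, Mrps18c, Mrps33, Mrpl42, Mrpl20 and Mrpl10, which rose, and Mrps18a and Mrpl41, which fell. The other 11 calls all ended without DHC replicate 2, when 6 members were higher and 2 lower. Without that library the calls over all genes were also fewer, at 1195 higher and 1277 lower, against 1968 and 1717 with it. Without DHC replicate 3 there were 9 higher and 4 lower members, beside 1391 higher and 1369 lower of all 10674 genes then tested.

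**Figure D2:**
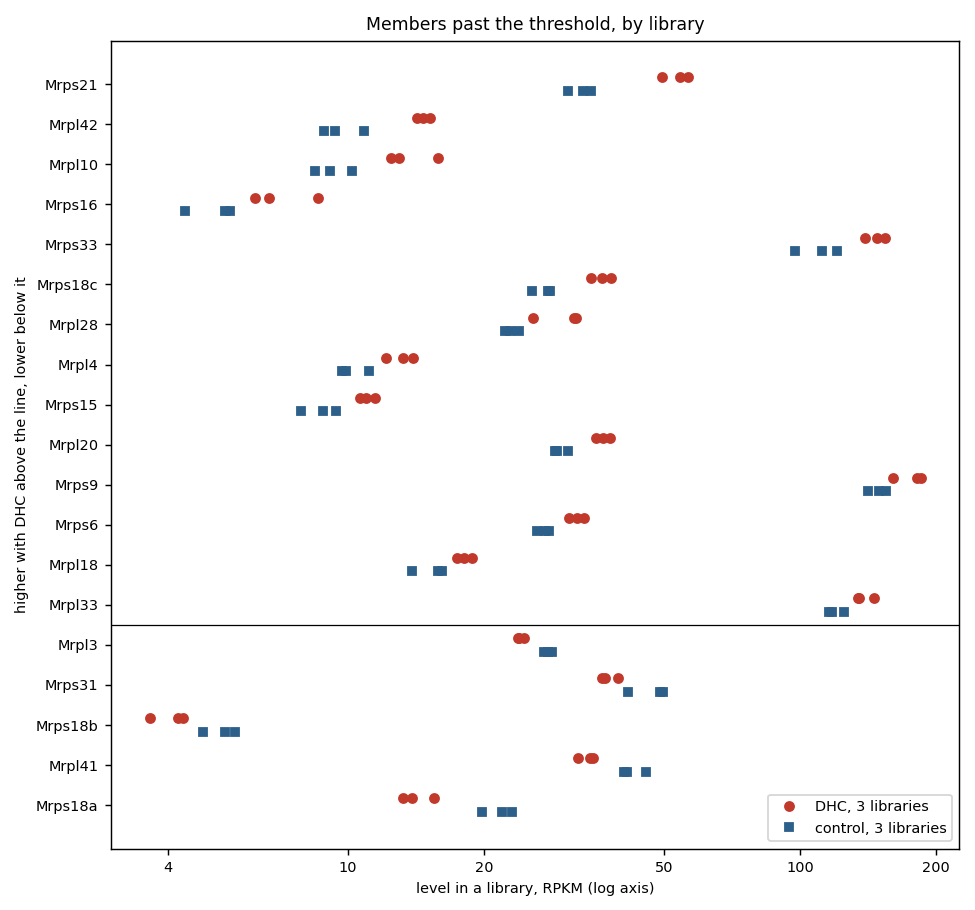
Level of the 19 members past the threshold in each of 3 DHC libraries (circles) and 3 control libraries (squares), in RPKM on a log axis, with the 14 that rose above the line and the 5 that fell below it. The groups did not overlap for any of the 19, which were picked by the test on these same values. Among all genes tested, 49.7% did not overlap. The widest gap relative to the level is that of Mrps21.

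Mrps18a, Mrps18b and Mrps18c are 3 paralogues that share descent from bacterial ribosomal protein S18. In structures of the mammalian mitoribosome the product of Mrps18c sits at the place of the bacterial protein, that of Mrps18b elsewhere in the small subunit, and that of Mrps18a in the large subunit despite its symbol. With DHC, Mrps18a and Mrps18b fell and Mrps18c rose. Mrps18a (chromosome 9, 17238385 to 17254949, build Rnor_6.0) had 13.2, 15.5 and 13.8 RPKM in DHC libraries, against 19.8, 21.9 and 23.0 RPKM in control libraries. All 3 DHC values lay below all 3 control values, with a ratio of the means of 0.658 (log2 fold change −0.57 ± 0.08, SE, limma adjusted p = 0.0017). Mrps18c (chromosome 14, 10440691 to 10446909) had 34.5, 36.4 and 38.1 RPKM in DHC libraries, against 25.6, 28.0 and 27.6 RPKM in control libraries. Its DHC values all lay above the control values (0.41 ± 0.06, limma adjusted p = 0.00183). Mrps18b (chromosome 20, 3344870 to 3350927) was much lower than its paralogues, at 3.64, 4.20 and 4.32 RPKM in DHC libraries and 5.63, 4.77 and 5.34 RPKM in control libraries. The groups did not overlap (−0.31 ± 0.09, limma adjusted p = 0.0405). That call rested on 240 to 292 reads in DHC and 308 to 405 in control libraries. It ended without control replicate 1 (0.107) or 3 (0.101), and without DHC replicate 1 (0.102), 2 (0.0828) or 3 (0.0605). It also ended with no filter on low values (0.0884) and without both libraries numbered 1 (0.182). The RefSeq table of the assembly GRCr8 lists 1 pseudogene each named after Mrps18b and Mrps18c, so reads of the copies may be part of their values.

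**Figure D3:**
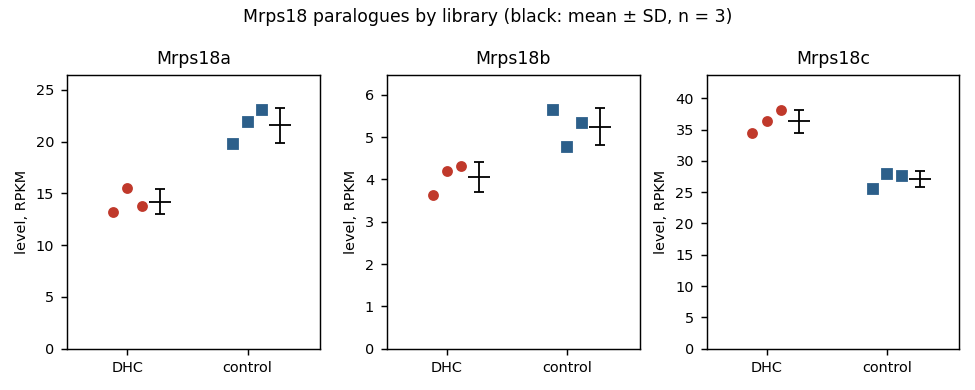
Levels of the 3 Mrps18 paralogues in RPKM, each from 0, in 3 DHC libraries (circles) and 3 control libraries (squares), with the mean ± SD of each group in black. Mrps18a and Mrps18b are lower and Mrps18c is higher in every DHC library than in any control library.

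The windows around the starts of the 3 paralogues are shown because the family moved in both directions. Each covers 250 bases before and 50 after the gene's start, on the gene's own strand, from RefSeq on GRCr8. They lie at chr9:22367331-22367630 (minus strand) for Mrps18a, chr20:2842756-2843055 (plus strand) for Mrps18b and chr14:9122857-9123156 (minus strand) for Mrps18c. Capitals mark matches to 4 short motifs searched on both strands, CCGGAAG (ETS factors, among them GABP), TGCGCA (part of the NRF1 site), AAGATGG (YY1) and CACGTG (the E-box, bound by MYC and MAX). None of the matches in these windows overlapped another.
Mrps18a: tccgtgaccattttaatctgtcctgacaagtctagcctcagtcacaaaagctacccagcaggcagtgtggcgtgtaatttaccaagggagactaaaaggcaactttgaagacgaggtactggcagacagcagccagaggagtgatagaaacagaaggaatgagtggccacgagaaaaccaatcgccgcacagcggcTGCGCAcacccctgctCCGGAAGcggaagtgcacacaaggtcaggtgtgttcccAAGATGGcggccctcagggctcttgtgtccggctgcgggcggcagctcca
Mrps18b: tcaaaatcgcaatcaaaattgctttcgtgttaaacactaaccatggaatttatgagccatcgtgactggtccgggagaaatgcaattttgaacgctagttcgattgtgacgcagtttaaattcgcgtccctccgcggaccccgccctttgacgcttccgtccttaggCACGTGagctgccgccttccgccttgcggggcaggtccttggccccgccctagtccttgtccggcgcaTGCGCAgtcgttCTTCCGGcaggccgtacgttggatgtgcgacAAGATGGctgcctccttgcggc
Mrps18c: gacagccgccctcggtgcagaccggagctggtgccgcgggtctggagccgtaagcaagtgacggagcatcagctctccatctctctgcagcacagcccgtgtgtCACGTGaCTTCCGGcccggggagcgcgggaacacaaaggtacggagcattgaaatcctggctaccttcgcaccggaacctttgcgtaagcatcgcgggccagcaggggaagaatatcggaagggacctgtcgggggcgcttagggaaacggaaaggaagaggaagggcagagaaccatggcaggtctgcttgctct
Mrps18a had 1 match each of the ETS, NRF1 and YY1 letters, Mrps18b had 1 of each of the 4, and Mrps18c had 1 ETS and 1 E-box match. Over the 58 members with a window, 19 held the ETS letters (32.8%), 15 the NRF1 letters (25.9%), 16 the YY1 letters (27.6%) and 5 the E-box (8.62%). The shares among all 33469 windows of the table, which include those of genes that code for no protein, were 8.75%, 7.24%, 7.01% and 6.42% in the same order. The ETS letters were in 5 of 14 members that rose, 4 of 5 that fell and 10 of 38 not past the threshold. The NRF1 letters were in 2, 3 and 10 of them, the YY1 letters in 2, 2 and 12, and the E-box in 2, 1 and 2. A match describes the letters only, and binding was not measured.

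Among the other small subunit genes, Mrps21 moved most. Its product is the counterpart of bacterial protein S21, which in bacteria sits near the site where the messenger RNA is set for initiation. Mrps21 (chromosome 2, 197974761 to 197982385) had 56.4, 54.4 and 49.4 RPKM in DHC libraries, against 33.1, 34.5 and 30.7 RPKM in control libraries. The groups were far apart, 1.63-fold in the means (log2 fold change 0.69 ± 0.07, limma adjusted p = 0.000297). The copy Mrps21l, itself a member, had 0 reads in each DHC library and 8, 2 and 0 in control libraries, under the filter on low values. RefSeq also lists 1 pseudogene of Mrps21. Mrps33, which has no bacterial counterpart, had 139, 148 and 154 RPKM in DHC libraries, against 112, 97.6 and 121 RPKM in control libraries (0.42 ± 0.08, limma adjusted p = 0.00605). It was among the most abundant members in both groups, and the groups did not overlap.

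Mrps6, the counterpart of the bacterial partner of S18, averaged 32.0 ± 1.26 RPKM in DHC and 27.1 ± 0.814 RPKM in control libraries (limma adjusted p = 0.0124, and 0.0559 without DHC replicate 2). It missed the threshold narrowly once a length trend was fitted and taken out of each library (0.052). Mrps15, counterpart of a bacterial protein that binds the ribosomal RNA early in assembly, averaged 11.0 ± 0.434 RPKM in DHC and 8.70 ± 0.780 RPKM in control libraries (0.0188). That call ended without control replicate 2 (0.0584) or DHC replicate 2 (0.0714) or 3 (0.0507). Mrps9, of bacterial descent, was the most abundant member of all, at 160.2, 182 and 185 RPKM in DHC libraries and 141, 155 and 149 RPKM in control libraries (0.0258). It missed the threshold when libraries were scaled by trimmed means (0.0928) or by median-of-ratios factors (0.0739), without the filter on low values (0.0599), without control replicate 1 (0.0679) or 3 (0.0613) and without DHC replicate 2 (0.0938) or 3 (0.0829). Mrps16, also of bacterial descent, rested on 112 to 152 reads in DHC and 81 to 111 in control libraries, at 7.16 ± 1.25 and 5.07 ± 0.613 RPKM (0.0382). It missed the threshold without any of control replicates 1 (0.102), 2 (0.0582) and 3 (0.0638) or DHC replicates 2 (0.0736) and 3 (0.098), under scaling by trimmed means (0.0706) or median-of-ratios factors (0.0641), and in limma-voom (0.0706). It also missed it with no filter (0.0954) and with the length trend removed (0.0964). RefSeq lists 2 pseudogenes of Mrps16. Mrps31, with no bacterial counterpart, fell to 37.6 ± 1.69 RPKM in DHC libraries, against 46.7 ± 4.55 RPKM in control libraries (0.02). Its call ended without control replicate 1 (0.0569) or 2 (0.0688) and without DHC replicate 1 (0.0505) or 2 (0.0736).

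In the large subunit the largest rise was that of Mrpl42, which has no bacterial counterpart. Mrpl42 (chromosome 7, 36573654 to 36597462) had 14.7, 15.2 and 14.2 RPKM in DHC libraries, against 10.8, 8.86 and 9.38 RPKM in control libraries. The groups did not overlap and differed 1.52-fold in the means (log2 fold change 0.56 ± 0.08, limma adjusted p = 0.00185). RefSeq lists 3 copies of it, the locus Mrpl42l1 and 2 pseudogenes, so its value is uncertain where reads fit more than 1 of them. Mrpl10, the base of the stalk that recruits elongation factors (chromosome 10, 84976377 to 84984780), had 12.4, 13.0 and 15.8 RPKM in DHC libraries, against 8.44, 9.10 and 10.2 RPKM in control libraries (0.52 ± 0.10, limma adjusted p = 0.0076). Mrpl12, which forms the rest of that stalk, averaged 14.6 RPKM in DHC and 14.5 RPKM in control libraries (limma adjusted p = 0.985). Mrpl20, counterpart of a bacterial protein needed early in assembly of the subunit (chromosome 5, 173248245 to 173252775), had 38.1, 36.6 and 35.3 RPKM in DHC libraries, against 28.7, 30.7 and 28.9 RPKM in control libraries (0.31 ± 0.05, limma adjusted p = 0.00398). Both genes were higher in every DHC library than in any control library.

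Mrpl41, which has no bacterial counterpart (chromosome 3, 2181045 to 2181962), went the other way. It had 34.3, 32.3 and 34.8 RPKM in DHC libraries, against 40.8, 45.6 and 41.3 RPKM in control libraries (log2 fold change −0.32 ± 0.06, limma adjusted p = 0.00556). No DHC library reached the lowest control value, and RefSeq lists 1 locus, Mrpl41l1, as a relative. Mrpl3, whose bacterial counterpart reaches toward the centre where peptide bonds are made, averaged 24.1 ± 0.439 RPKM in DHC and 27.7 ± 0.582 RPKM in control libraries (0.0177). Its call ended without control replicate 2 (0.0681) or 3 (0.0534) or DHC replicate 2 (0.0661). It passed under each scaling tried.

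The other 4 large subunit genes that rose are all of bacterial descent. Mrpl28 averaged 29.8 ± 3.56 RPKM in DHC and 23.0 ± 0.834 RPKM in control libraries (limma adjusted p = 0.0183), and missed the threshold without control replicate 1 (0.0514) or DHC replicate 2 (0.0701) or 3 (0.0612). Mrpl4, whose counterpart lines the exit tunnel, averaged 13.1 ± 0.916 RPKM in DHC and 10.2 ± 0.760 RPKM in control libraries (0.0162), and missed it without control replicate 2 (0.0576) or 3 (0.0507) or DHC replicate 2 (0.0641). Mrpl33, the most abundant large subunit gene and the shortest member with 236 bp of exon, averaged 138 ± 6.39 RPKM in DHC and 119 ± 5.07 RPKM in control libraries (0.0181). It missed the threshold with the length trend removed (0.263), without control replicate 2 (0.0682) or DHC replicate 2 (0.0731), and when scaled by trimmed means (0.0844) or by median-of-ratios factors (0.0647). Mrpl18 averaged 18.1 ± 0.680 RPKM in DHC and 15.3 ± 1.24 RPKM in control libraries (0.0415). It missed it without control replicate 1 (0.0851) or 2 (0.0713), without DHC replicate 1 (0.102), 2 (0.107) or 3 (0.0678), under scaling by trimmed means (0.125) or median-of-ratios factors (0.105), with no filter (0.0723), in limma-voom (0.0728), with the length trend removed (0.126) and without both libraries numbered 1 (0.128).

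The numbers in the symbols are a rough guide to bacterial descent. With numbers up to 36 for the large and up to 21 for the small subunit, 12 of 39 tested genes rose and 3 fell. Of 33 with higher numbers, 2 rose (Mrps33 and Mrpl42) and 2 fell (Mrps31 and Mrpl41). A number does not settle descent for each gene, so the split is by number only. The medians were 0.13 and 0.04, beside 0.05 for all genes tested. The shares that rose, 30.8% and 6.06%, lay on either side of the 18.4% of all genes, and their difference was not tested. Among the 12, only Mrps21, Mrps18c, Mrpl20 and Mrpl10 passed under each alternative at the same threshold, as did Mrps33 and Mrpl42. Scaling by trimmed means ended the calls of Mrpl18, Mrps16, Mrpl33 and Mrps9. Removing the length trend ended those of Mrpl18, Mrps6, Mrps16 and Mrpl33. Median exon length was 941 bp for lower and 1288 bp for higher numbers. Across the 72 tested members the log2 fold change ran slightly against exon length (Spearman rho −0.22, against −0.10 over all 10667 genes) and had little relation to level (−0.01). The genes share the same 6 libraries, and these are descriptions. With such a length trend taken out, 10 members were higher and 8 lower, beside 1595 higher and 1957 lower of all 10667 genes.

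Levels per length spanned a wide range. Tested large subunit genes ran from 2.87 RPKM (Mrpl40) to 129 RPKM (Mrpl33) in the mean over 6 libraries, a 44.8-fold range with a median of 16.4 RPKM. Tested small subunit genes ran from 1.49 RPKM (Mrps2) to 162 RPKM (Mrps9), 109-fold, with a median of 20.5 RPKM. After Mrps9 came Mrps25 at 142 and Mrps33 at 129 RPKM, and the library ranges of Mrps9 (141 to 185 RPKM), Mrps25 (127 to 157 RPKM) and Mrps33 (97.6 to 154 RPKM) overlapped. After Mrpl33 came Mrpl45, which ties the ribosome to the inner membrane, at 110 RPKM, and Mrpl27 at 69.1 RPKM. The range of Mrpl45 (97.0 to 121 RPKM) overlapped that of Mrpl33 (116 to 146 RPKM) and not that of Mrpl27 (66.9 to 70.2 RPKM). Mrpl45 and Mrpl27 did not pass the test (limma adjusted p = 0.774 and 0.592), nor did Mrps25 (0.14), which passed as lower without control replicate 1 (0.0239), without both libraries numbered 1 (0.0153) and with the length trend removed (0.0432). The sign of Mrpl45, 0.04 on the log2 scale, reversed to −0.03 under scaling by trimmed means.

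At the low end, Mrpl40, Mrpl36 and Mrpl50 averaged 2.87, 3.81 and 3.89 RPKM over 6 libraries, and none passed the test (limma adjusted p = 0.996, 0.450 and 0.443). Mrps2, Mrps35 and Mrps36 averaged 1.49, 2.29 and 4.07 RPKM (0.346, 0.0731 and 0.0772). Mrps36 is listed in RefSeq under the symbol Kgd4, after its part in the 2-oxoglutarate dehydrogenase complex, and 4 copies carry its older name. Mrpl1, which forms the stalk at the exit of spent tRNA, lay below the filter of 1 RPKM, with 30, 20 and 10 reads in DHC libraries and 10, 14 and 16 in control libraries. A further 3 large subunit genes are written in lower case in the table and so fell outside the set. None of them passed the test, with mrpl9 at 42.6 and 45.8 RPKM, mrpl11 at 4.14 and 3.74 RPKM and mrpl24 at 10.9 and 11.6 RPKM in DHC and control libraries (limma adjusted p = 0.172, 0.467 and 0.457).

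**Figure D4:**
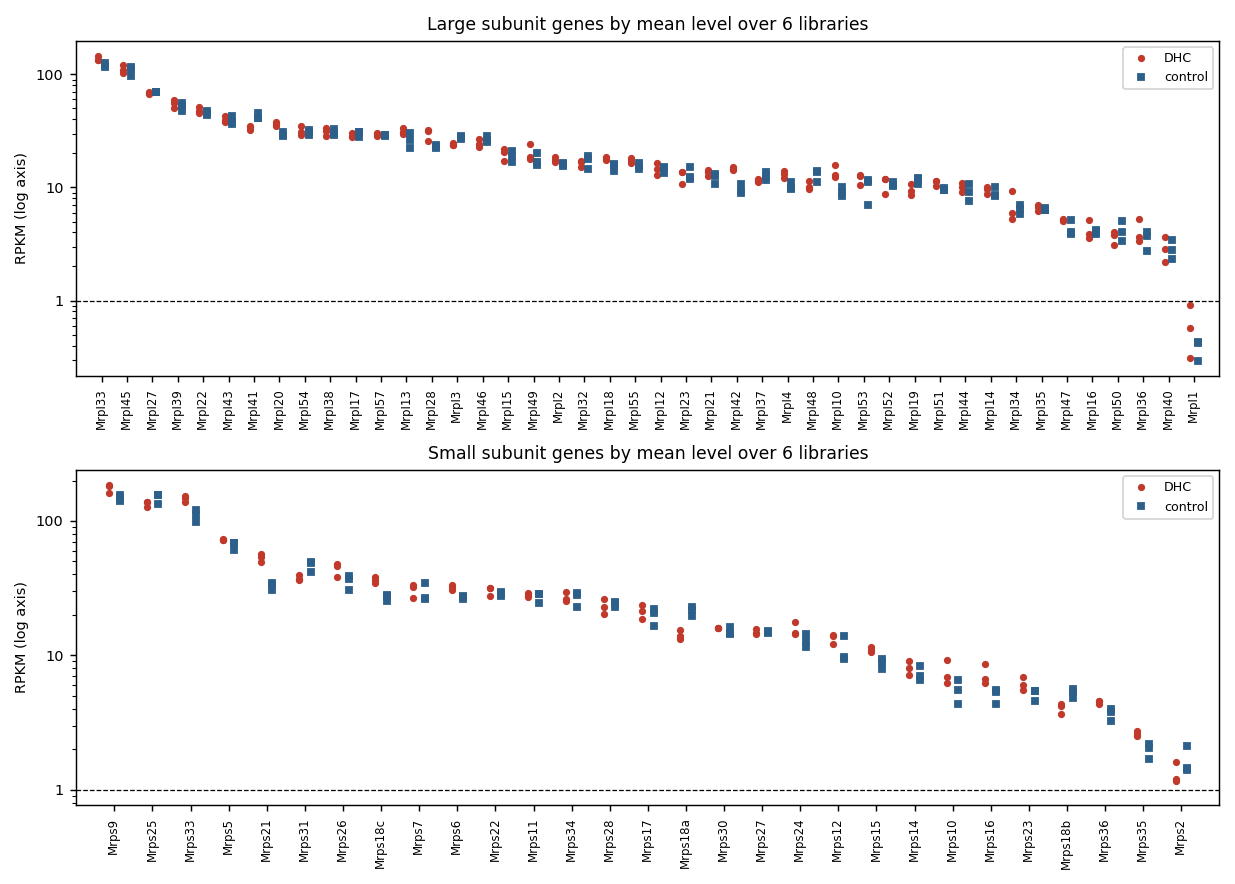
Level in RPKM on a log axis of each member in 3 DHC libraries (circles) and 3 control libraries (squares), ordered by the mean over 6 libraries, with the filter of 1 RPKM as a dashed line. Mrpl33 and Mrps9 stand at the top and Mrpl1 below the line, and Mrps21l is not drawn because it was at 0 in some libraries.

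Many members start beside another gene that runs the opposite way. On Rnor_6.0, 20 members had such a neighbour with starts within 1000 bp. In 1 such pair both genes were members, Mrpl46 and Mrps11, whose starts lay 72 bp apart. Mrpl46 had 26.6, 23.0 and 24.2 RPKM in DHC and 25.1, 28.2 and 26.2 RPKM in control libraries (limma adjusted p = 0.28), and Mrps11 had 28.0, 27.3 and 29.3 RPKM in DHC and 24.4, 28.5 and 28.5 RPKM in control libraries (0.586). The groups overlapped for both. Of the 17 tested neighbours that were no members, 4 rose and 1 fell, with 18.4% higher and 16.1% lower among all genes. Mrps18b was the only called member with a called neighbour, Ppp1r10, a regulator of protein phosphatase, and they moved in opposite directions. Ppp1r10 rose to 16.9 ± 0.467 RPKM in DHC libraries, against 12.7 ± 0.371 RPKM in control libraries (0.39, limma adjusted p = 0.0019), with 584 bp between the starts. The neighbour of Mrps18c, the helicase gene Helq at 84 bp, stood at 1.44 ± 0.0989 RPKM in DHC and 1.05 ± 0.105 RPKM in control libraries (0.12). The neighbour of Mrpl50, Zfp189, fell to 2.45 ± 0.519 RPKM in DHC libraries, against 4.62 ± 0.199 RPKM in control libraries (0.00377), while Mrpl50 had 3.62 RPKM in DHC and 4.16 RPKM in control libraries.

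Exon bases were shared with a gene on the other strand by 7 members, none of them past the threshold. The largest such overlaps were 61.1% of the exon bases of Mrpl47, with Actl6a, and 53.4% of those of Mrpl49, with Syvn1. No source used here says whether counting used strand, so the reads of such pairs cannot be told apart. RefSeq lists 35 loci named as copies of 23 members, 6 of them among the 19 past the threshold.

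Of 6 tested proteins of the mitoribosome that carry other symbols 1 rose and 1 fell, 16.7% each, close to the 18.4% higher and 16.1% lower of all genes. Gadd45gip1, a large subunit protein, had 16.9, 17.8 and 17.6 RPKM in DHC libraries, against 23.4, 24.7 and 21.7 RPKM in control libraries (log2 fold change −0.40 ± 0.06, limma adjusted p = 0.00267). Ptcd3, a small subunit protein with RNA-binding repeats, had 13.3, 12.0 and 12.5 RPKM in DHC libraries, against 9.39, 9.92 and 10.3 RPKM in control libraries (0.33 ± 0.07, 0.00879). For both genes the groups did not overlap.

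Of 13 tested translation factors of mitochondria 4 rose and 1 fell, with a median log2 fold change of 0.18. The shares were 30.8% and 7.69%, beside 18.4% and 16.1% of all genes. Scaling by trimmed means gave 2 higher and 2 lower, beside 1285 and 2114 of all 10667 genes. The 2 initiation factors moved in opposite directions. Mtif2, which brings the initiator tRNA to the small subunit, had 12.5, 11.6 and 11.2 RPKM in DHC libraries, against 8.03, 7.54 and 7.75 RPKM in control libraries (0.54 ± 0.07, limma adjusted p = 0.000905). Mtif3, which keeps the subunits apart before initiation, had 9.38, 10.1 and 8.66 RPKM in DHC libraries, against 14.6, 15.2 and 13.8 RPKM in control libraries (−0.58 ± 0.07, 0.00106). Neither gene's groups overlapped. The elongation factor gene Gfm1 averaged 62.1 ± 3.92 RPKM in DHC and 51.5 ± 2.92 RPKM in control libraries (0.0169), and the GTPase gene Guf1 5.88 ± 0.437 and 4.50 ± 0.121 RPKM (0.0186). Gfm1 missed the threshold without DHC replicate 2 (0.0656) or 3 (0.0587) and under scaling by trimmed means (0.0599), and Guf1 without control replicate 2 (0.0616) or DHC replicate 2 (0.0659) or 3 (0.0657).

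Of 23 tested assembly factors 2 rose (8.70%, beside 18.4% of all genes) and 0 fell by limma, with a median of 0.16. At an unadjusted p below 0.05 there were 7 higher and 0 lower, limma-voom called 6 higher and 0 lower, and scaling by trimmed means gave 1 of each. Of all 10667 genes, 4834 had an unadjusted p below 0.05 in either direction. Over all genes limma-voom called 2305 higher and 1938 lower, and scaling by trimmed means gave 1285 higher and 2114 lower. Gtpbp10, a GTPase of large subunit assembly, averaged 20.8 ± 1.88 RPKM in DHC and 16.3 ± 0.480 RPKM in control libraries (limma adjusted p = 0.0113). Rbfa, which acts on the RNA of the small subunit, averaged 32.7 ± 2.69 RPKM in DHC and 27.0 ± 1.55 RPKM in control libraries (0.0253). Rbfa missed the threshold without control replicate 1 (0.0666) or 2 (0.0798) or DHC replicate 3 (0.0697), under scaling by trimmed means (0.0818) or median-of-ratios factors (0.0688) and with no filter (0.0534). Of the 20 mitochondrial tRNA synthetases and amidotransferase subunits 1 rose and 1 fell, 5% each, below the shares of all genes (3 and 2 in limma-voom). The amidotransferase gene Gatc averaged 4.79 ± 0.121 RPKM in DHC and 3.55 ± 0.510 RPKM in control libraries (0.033), and the tryptophan enzyme gene Wars2 2.38 ± 0.264 and 3.25 ± 0.170 RPKM (0.0362). Both calls ended without DHC replicate 2 (Gatc 0.0983, Wars2 0.116) or 3 (Gatc 0.0708, Wars2 0.0945) and without control replicate 2 (Gatc 0.0868, Wars2 0.115) or 3 (Gatc 0.0545, Wars2 0.0715). That of Gatc ended also without DHC replicate 1 (0.0706), with no filter (0.0785) and under scaling by trimmed means (0.0604) or median-of-ratios factors (0.056). That of Wars2 ended also without control replicate 1 (0.0667), with no filter (0.0754) and without both libraries numbered 1 (0.0503).

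Of 10 tested genes for transcription and copying of mitochondrial DNA 3 rose (30%, beside 18.4% of all genes) and 0 fell by limma, with a median of 0.18. At an unadjusted p below 0.05 there were 5 higher and 0 lower, beside 4834 of all 10667 genes in either direction. Limma-voom also called 3 higher and 0 lower, beside 2305 higher and 1938 lower of all genes. Scaling by trimmed means gave 2 higher and 0 lower, beside 1285 and 2114 of all genes. At an unadjusted p below 0.05 that scaling likewise gave 2 and 0. The single-stranded DNA binding protein gene Ssbp1 rose to 60.4 ± 6.60 RPKM in DHC libraries, against 44.3 ± 0.443 RPKM in control libraries (0.43 ± 0.08, limma adjusted p = 0.00411). Polrmt, the mitochondrial RNA polymerase gene, rose to 9.33 ± 0.268 RPKM in DHC libraries, against 7.29 ± 0.487 RPKM in control libraries (0.0125, and 0.0554 without both libraries numbered 1). Tfam, which packs and transcribes mitochondrial DNA, averaged 43.2 ± 2.82 RPKM in DHC and 37.2 ± 2.12 RPKM in control libraries (0.042). The call of Tfam ended without control replicate 2 (0.132) or 3 (0.083), without DHC replicate 1 (0.106) or 2 (0.127), and under scaling by trimmed means (0.124). It also ended with median-of-ratios factors (0.106), with no filter (0.0771) and with the length trend removed (0.0856).

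Of 8 tested regulators of mitochondrial biogenesis 1 rose and 3 fell, 12.5% and 37.5%, beside 18.4% and 16.1% of all genes. Myc, whose protein binds E-boxes, fell to 0.673 ± 0.292 RPKM in DHC libraries, against 7.82 ± 1.05 RPKM in control libraries (−2.40 on the log2 scale, limma adjusted p = 3.78e-05). Yy1 fell to 63.8 ± 1.04 RPKM in DHC libraries, against 82.3 ± 1.24 RPKM in control libraries (−0.36 ± 0.04, 0.00054), and Esrra, a nuclear receptor gene, to 6.71 ± 0.413 RPKM, against 9.28 ± 0.357 RPKM (−0.42 ± 0.07, 0.00404). Gabpb1, a partner of the ETS factor GABPA, averaged 6.24 ± 0.420 RPKM in DHC and 5.13 ± 0.121 RPKM in control libraries (0.0458), and missed the threshold without any 1 of the 6 libraries (0.0648 to 0.14). It also missed it under scaling by trimmed means (0.11) or median-of-ratios factors (0.0974), with no filter (0.0819), with the length trend removed (0.0638) and without both libraries numbered 1 (0.121). Nrf1 and Gabpa did not pass (0.358 and 0.173). The part of these factors in the members' values was not tested.

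**Figure D5:**
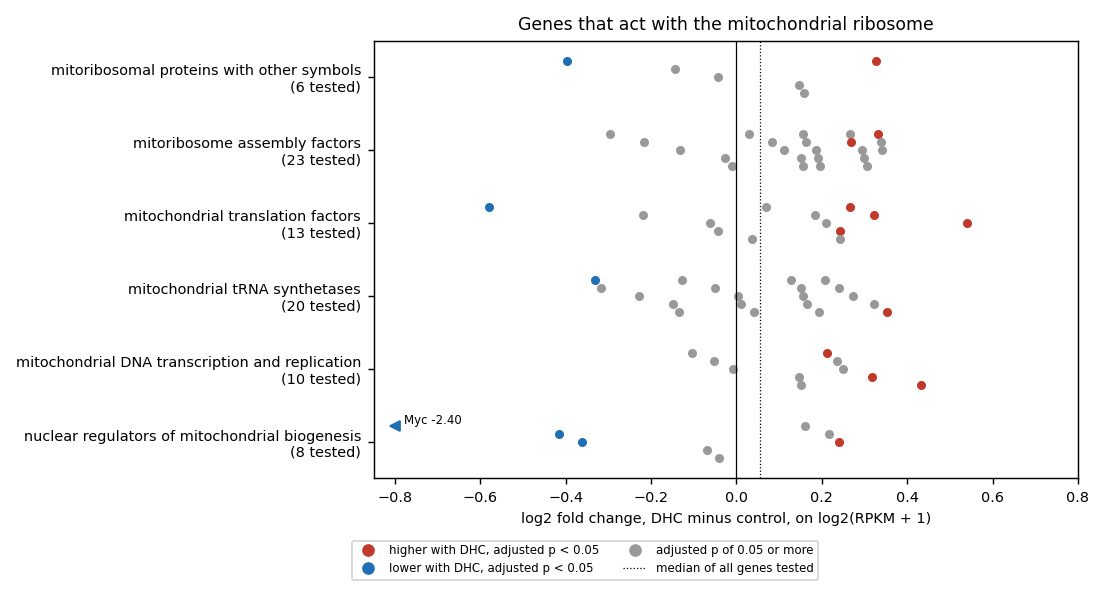
Log2 fold change on the log2(RPKM + 1) scale of each tested gene in 6 lists of genes that act with the mitochondrial ribosome, each point 1 gene, with DHC minus control on the x axis. Mtif2 (0.54) and Mtif3 (−0.58) lie at opposite ends of the translation factors, and Myc at −2.40 is drawn at the left edge.

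Among the transcripts that the mitoribosome translates, 5 of 13 rose and 0 fell by limma, with a median log2 fold change of 0.22 (0.16 when scaled by trimmed means, with 4 higher). The share that rose was 38.5%, beside 18.4% higher and 16.1% lower of all genes. At an unadjusted p below 0.05 there were 6 higher and 0 lower, beside 4834 of all 10667 genes in either direction. Limma-voom called 10 higher and 0 lower, beside 2305 higher and 1938 lower of all genes. They took 3.94% ± 0.125 of the reads in DHC and 3.38% ± 0.0943 in control libraries. Mt-co1 stood at 5541 ± 273 RPKM in DHC and 4497 ± 134 RPKM in control libraries (limma adjusted p = 0.00434). Of 72 tested proteins of the cytosolic ribosome, 9 were higher and 0 lower by limma, with a median of 0.10. The share that was higher, 12.5%, lay below the 18.4% of all genes. This count depended on the method, with 19 higher in limma-voom and 1 higher when scaled by trimmed means, 0 lower in both, and 23 higher and 0 lower at an unadjusted p below 0.05. The counts over all 10667 genes were 2305 higher and 1938 lower in limma-voom and 1285 and 2114 with trimmed means. At an unadjusted p below 0.05 there were 4834 in either direction. The mitochondrial ones gave 14 higher and 5 lower of 72 and a median of 0.08. Whether these sets differ was not tested.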

How the data were processed

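Total RNA from 6 samples was sequenced, 3 of DHC-treated and 3 of control RBL-2H3 cells. The submitters' processing notes name the build Rnor_6.0 and the tools Trimmomatic 0.36, Subread 1.5.1 with its featureCounts, and edgeR 3.12.1. Aligner, annotation release and strand setting: not given in the sources used here. The deposited table holds RPKM, as its values show. Multiplied by exon length and divided by a value fitted for each library, they gave whole reads, to within 0.01 read, in 100% of cases. These reads per gene were used for library totals and limma-voom. Libraries had been scaled to their totals only.

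Members were taken by symbol. The test was limma 3.58.1 in R 4.3.3, on log2(RPKM + 1) with a trended variance and no covariate, for 10667 genes whose mean reached 1 RPKM, adjusted by Benjamini-Hochberg over all of them. Fold changes on this scale understate those of low genes. The fit was run on simulated reads with known changes, the same extra spread for every gene and no replicate structure. This checks the procedure and not the calls in these data. Named genes were, per subunit, up to 8 in each direction by lowest p among those past the threshold, the 3 highest and 3 lowest by level, members below the filter, the Mrps18 paralogues, and up to 3 per pathway list and direction. Divergent neighbours and other genes outside this rule were named after their values were seen. The members and lists were chosen with earlier results of these data known. At these depths 3 reads correspond to 0.0878 to 0.103 RPM, for counting error only.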

Additional observations from a re-analysis of the deposited data

How the results depend on the processing

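Medians and counts moved with the scaling. The median log2 fold change of large subunit genes was 0.05, and −0.012 with trimmed means, −0.0037 with median-of-ratios factors and 0.00057 with the length trend removed. In each of these 3 settings 4 large subunit genes were lower instead of 2, as also at a minimum of 5 RPKM. Over all 10667 genes the lower calls went from 1717 to 2114, 2048 and 1957 in those 3 settings. At the minimum of 5 RPKM they were 1429 of 7465. At an adjusted p of 0.01, 3 large and 3 small subunit genes were higher and 1 of each lower, as a stricter threshold must give fewer. Over all 10667 genes 873 were higher and 1076 lower at that threshold. Leaving out 1 library gave 3 to 7 large subunit genes higher and 1 to 3 lower, 3 to 8 small subunit genes higher and 1 to 2 lower, and medians of 0.029 to 0.095 for large and 0.13 to 0.20 for small subunit genes. Calls over all genes also fell in each of these omissions, to 1195 to 1755 higher and 1277 to 1610 lower. With Mrps18a and Mrps30 counted in the large subunit, 7 large subunit genes were higher and 3 lower, and 7 small subunit genes were higher and 2 lower. The small subunit median was then 0.22. Neither the 3 lower-case genes nor members that share exon bases, both settings chosen after seeing the data, changed a count. Other pseudocounts, limma-voom and robust variance left the counts at 7 and 2 for the large and 7 and 3 for the small subunit. The genes behind the counts were not all the same in limma-voom. There Mrpl18 (0.0728) and Mrps16 (0.0706, limma-voom adjusted p) missed the threshold and other members passed it. The labels do not say that a replicate number marks shared material. Deviations of same-numbered libraries from their group means correlated at 0.23, −0.05 and 0.08, so not every pair was above 0.1, and not every library correlated best with its own number. The second principal component (12.8% of the variance) did order both groups by number, at 11.5, −2.15 and −8.35 in DHC and 12.1, −2.49 and −10.7 in control libraries, a hint of pairing from the data and not from the design. With the replicate block 7 large and 10 small subunit genes were higher and 3 and 3 lower. Over all 10667 genes there were then 2426 higher and 1907 lower, against 1968 and 1717 without the block. The calls of Mrpl18 (0.0556), Mrps18b (0.059), Wars2 (0.0551) and Gabpb1 (0.0626) ended with the block, and Mrps25 passed as lower (0.019, limma adjusted p). Without both libraries numbered 1, limma adjusted p also rose above the threshold for Mrps15 (0.0519), Mrps16 (0.0588), Mrps31 (0.102), Rbfa (0.0597), Gatc (0.0585) and Tfam (0.0711). The sign of Mrpl40 (−0.00) reversed with limma-voom (0.0054), without both libraries numbered 1 (0.036), without control replicate 2 (0.11) and without DHC replicate 1 (0.14), with −0.14 to 0.14 over the 6 omissions. That of Mrpl50 reversed without both libraries numbered 1 (0.063). That of Mrpl45 (0.04) reversed with trimmed means (−0.030), median-of-ratios factors (−0.021), without control replicate 1 (−0.041) and without DHC replicate 3 (−0.026), with −0.041 to 0.095 over the 6 omissions. None of these 3 passed the test in any setting. Where no construction explains a change, the cause was not tested. The precision of low members is limited by their reads, such as 81 to 152 a library for Mrps16.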
